A study of Mus musculus with 3 samples.

Results

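The genes described here are 10 transcription factors of the epithelial to mesenchymal transition and of the neural crest: Snai1, Snai2, Twist1, Twist2, Zeb1, Zeb2, Sox9, Sox10, Tfap2a and Tfap2b. They were taken as every non-control probe whose array accession maps to one of these symbols, which gave 12 of the 39429 probes. Of these, 9 probes, 1 each for 9 genes, were well above background on all 3 arrays in at least 1 genotype and were tested among 19815 genes. Tfap2b had no such probe.

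Embryoid bodies without Hopx (Hopx-/-, called null) were compared with embryoid bodies that keep 1 working copy (Hopx+/-, called heterozygous) at day 8 of cardiac differentiation. Embryoid bodies are aggregates of differentiating embryonic stem cells, and Hopx encodes a small homeodomain protein of the developing heart. The stem cells came from blastocysts of both genotypes, were derived and kept on feeder cells, and both cultures were given VEGF, bFGF, FGF10 and ascorbic acid in the cardiac medium. RNA of both genotypes was hybridized together, each in its own dye, to 3 Agilent arrays, 1 for each replicate. No wild-type culture was on the arrays, so the controls themselves lack 1 copy of Hopx, and while the submitters call the replicates biological, the labels do not say how many stem cell lines were used. The p-values rest on the spread among these 3 pairs, moderated with the spread of all probes kept. A difference between genotypes cannot be told apart from one between lines.

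The direction of replicate 3 is not settled. The labels give the red dye to null RNA on every array, yet across probes, which are no independent replicates, the log2 ratios of replicate 3 ran against those of replicate 1 (r = -0.903) and replicate 2 (r = -0.902), while r was 0.939 between replicates 1 and 2. All values below have replicate 3 turned, as in the authors' deposited value table, so array 3 values can be read the other way by changing their sign. So turned, Hopx gave log2 ratios of null over heterozygous of -2.98, -2.97 and -3.45 on its brightest probe and of -2.36, -2.29 and -2.94 on its other probe. Read as labelled, replicate 3 would put Hopx higher in the culture labelled null, and limma then called 0 of the 19815 genes (62 at an unadjusted p under 0.05, 0 of them among the factors). By channel, the share of spots that stood well above background ran from 61.9% to 65.7% on arrays 1 and 2. On array 3, so turned, it was 72.9% in the null and 62.9% in the heterozygous channel. The cells sampled are a mixture, in which fewer cells of a type and less RNA per cell cannot be told apart.

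In an epithelial to mesenchymal transition, cells give up their junctions and apical-basal polarity and become migratory. Snai, Zeb and Twist proteins drive it, in part by binding E-box sequences in the promoters of epithelial genes and repressing them, and the embryo uses it when mesoderm leaves the primitive streak, when endocardial cells fill the heart's cushions and when neural crest cells leave the neural tube. Tfap2a and Tfap2b act early in the neural crest, Sox10 and Sox9 act in its later lineages, and Sox9 is also the master factor of cartilage and a factor of the valve cushions.

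Of the 9 factors tested, 5 rose in null embryoid bodies (Twist1, Twist2, Zeb2, Sox9 and Tfap2a), 1 fell (Snai2) and 3 did not pass (Snai1, Zeb1 and Sox10). A call means an adjusted p under 0.05 by limma with Benjamini-Hochberg adjustment over all probes kept. Among all genes tested 60.3% were called, 30.2% higher and 30.1% lower, so that 6 calls among 9 genes is near the background. Under median centring without loess, which put the median of all genes at 0.23, 8543 genes were called higher and 3008 lower, against 5980 higher and 5967 lower as reported, and 7 factors were called higher and 1 lower. The median log2 ratio of the 9 was 0.26, beside 0.0034 for all genes tested. None of the 9 changed by at least 2-fold, while 4.87% of all genes were both called and at least 2-fold higher and 6.03% were called and at least 2-fold lower. The log2 ratio had the same sign on all 3 arrays for 7 of the 9, as it did for 75.4% of all genes. These signs and sizes are shown in the plot of log2 ratios by array.

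**Figure D1:**
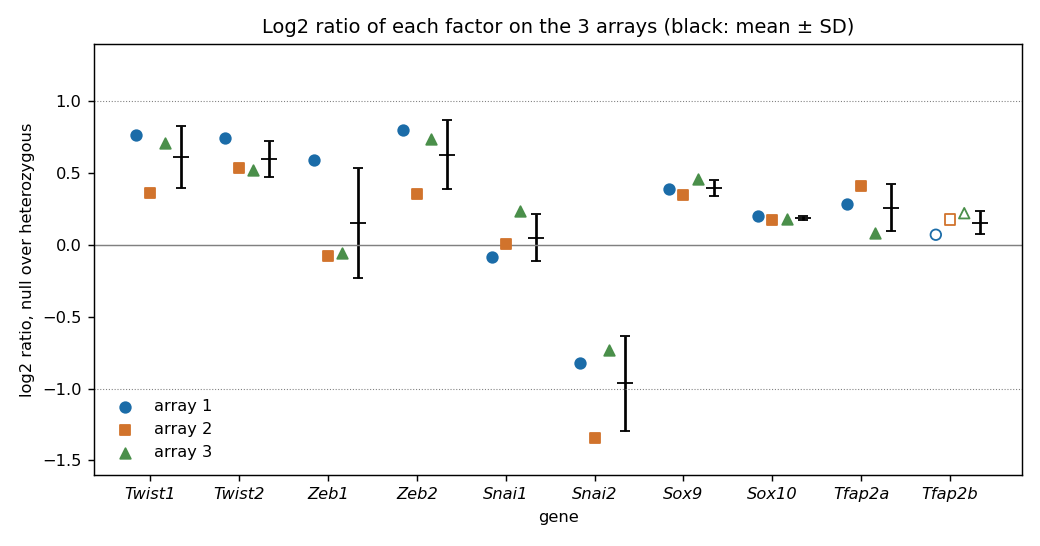
Log2 ratio of null over heterozygous (vertical axis) of each factor (horizontal axis) on the 3 arrays, with the mean ± SD of the arrays in black and dotted lines at a 2-fold change. Twist1, Twist2, Zeb2, Sox9, Sox10 and Tfap2a lie above 0 and Snai2 below 0 on every array, while Snai1 and Zeb1 straddle 0. Open symbols mark Tfap2b, which was too dim to be tested or to give a direction.

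Snai2, which encodes the zinc finger repressor Slug, was the 1 factor that fell. Its normalized log2 signal was 10.88, 10.44 and 10.83 in null cultures on arrays 1, 2 and 3, against 11.70, 11.78 and 11.56 in heterozygous cultures. The groups did not overlap, and array 2 showed the widest gap. The log2 ratios were -0.82, -1.34 and -0.73, with a fitted value of -0.96 (SE 0.12, 95% interval -1.25 to -0.68, n = 3 arrays, adjusted p = 0.00021 by limma), a 1.95-fold lower signal.

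Snai1, the paralog known as Snail, which is needed for mesoderm to leave the primitive streak in the mouse embryo, did not pass. Its log2 signal was 10.20, 10.14 and 10.26 in null cultures, against 10.29, 10.14 and 10.02 in heterozygous cultures. The groups overlapped, with null lower on array 1, level on array 2 and higher on array 3. The fitted log2 ratio was 0.05 (95% interval -0.16 to 0.26, limma adjusted p = 0.664). The difference in ratio between Snai1 and Snai2 was not tested.

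The Twist genes encode bHLH proteins that bind E-boxes as dimers, and both rose. Twist1 had log2 signals of 7.70, 7.51 and 8.28 in null cultures, against 6.94, 7.15 and 7.57 in heterozygous cultures. The null signal was the higher on every array, although the groups overlapped because array 3 was the brightest in both genotypes. Its log2 ratios were 0.76, 0.36 and 0.71, with a fitted value of 0.61 (SE 0.10, 95% interval 0.38 to 0.84, limma adjusted p = 0.00088), a 1.53-fold higher signal.

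Twist2, also called Dermo1 and found in dermal and other mesenchyme, was steadier between arrays. Its log2 signals were 10.40, 10.26 and 10.23 in null cultures, against 9.66, 9.73 and 9.71 in heterozygous cultures, and the groups did not overlap. The log2 ratios of 0.74, 0.53 and 0.52 gave a fitted value of 0.60 (SE 0.09, 95% interval 0.40 to 0.80, limma adjusted p = 0.000445), a 1.52-fold higher signal. The SD of the ratio over arrays was 0.12 for Twist2 and 0.22 for Twist1.

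The Zeb genes encode zinc finger repressors that carry a homeodomain. Zeb2, which the neural crest needs in order to form and migrate, had log2 signals of 8.93, 9.0 and 9.71 in null cultures, against 8.13, 8.65 and 8.97 in heterozygous cultures. Null was higher on every array and the groups overlapped, with array 3 again brightest in both genotypes. The log2 ratios of 0.80, 0.36 and 0.74 gave a fitted value of 0.63 (SE 0.10, 95% interval 0.39 to 0.87, limma adjusted p = 0.00091), a 1.55-fold higher signal. Another Zeb2 probe was dim, above background in null RNA on 2 arrays and in heterozygous RNA on 1, and was not tested. Its log2 ratios were 0.23, -0.05 and 0.09.

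Zeb1 was a matter of 1 array. Its log2 signal was 11.11, 10.38 and 10.74 in null cultures, against 10.51, 10.46 and 10.80 in heterozygous cultures. Array 1 put null higher with a log2 ratio of 0.59, while arrays 2 and 3 gave -0.08 and -0.05. The fitted value was 0.15 (SE 0.13, 95% interval -0.15 to 0.46, limma adjusted p = 0.352), and it was -0.07 without replicate 1. The SD over arrays, 0.38, was larger than for any of the other 8 factors tested.

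**Figure D2:**
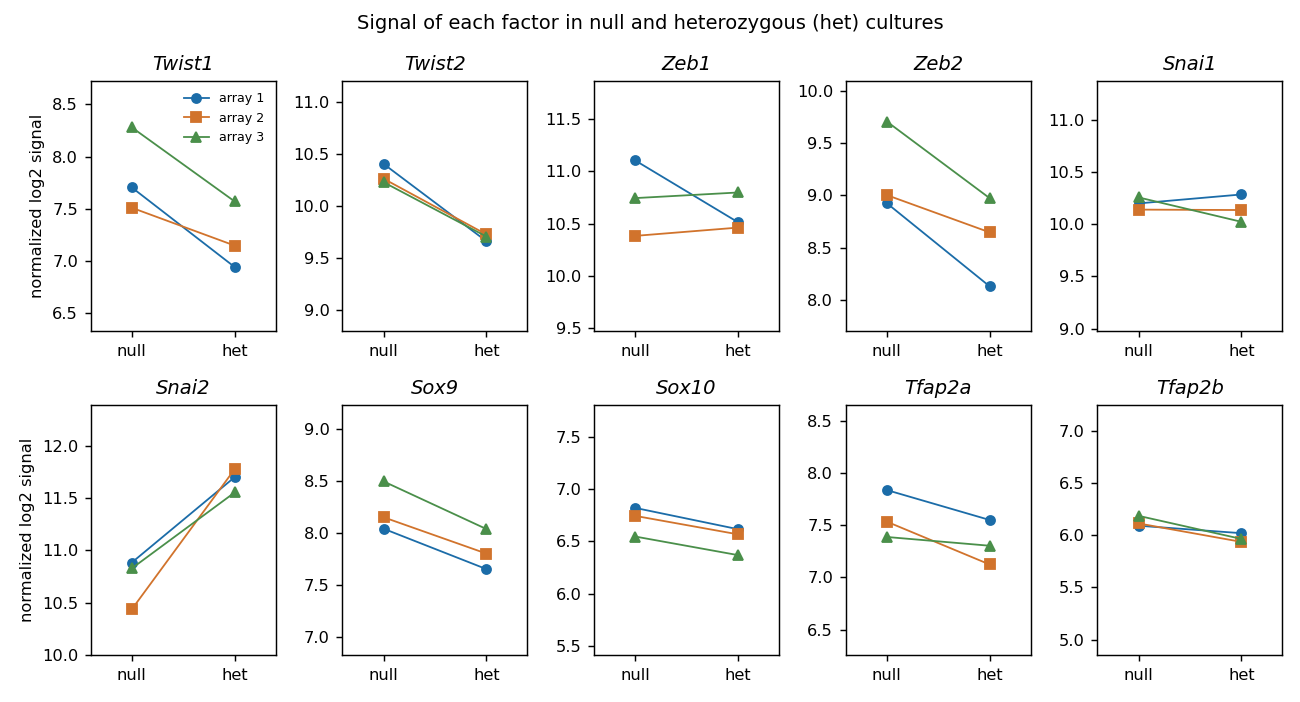
Normalized log2 signal (vertical axis, the same span in each panel) of each factor in null and heterozygous (het) cultures, with a line joining the channels of an array. Lines fall from null to heterozygous for Twist1, Twist2, Zeb2, Sox9, Sox10 and Tfap2a and climb for Snai2, and those of Zeb1 and Snai1 run both ways.

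Sox9 rose, and its probe is printed 10 times on each array. Its mean log2 signals were 8.04, 8.15 and 8.5 in null cultures, against 7.65, 7.80 and 8.04 in heterozygous cultures, so the lowest null and the highest heterozygous signal almost met. The log2 ratios of 0.39, 0.35 and 0.46 gave a fitted value of 0.40 (SE 0.08, 95% interval 0.21 to 0.58, limma adjusted p = 0.0030), a 1.32-fold higher signal. Single spots spanned 0.24 to 0.56 on array 1, 0.16 to 0.49 on array 2 and 0.35 to 0.53 over the 9 usable spots of array 3, so that every usable spot on these arrays lay above 0. The SD between spots of an array, 0.06 to 0.11, was as large as or larger than the SD of 0.05 between the arrays' means.

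**Figure D3:**
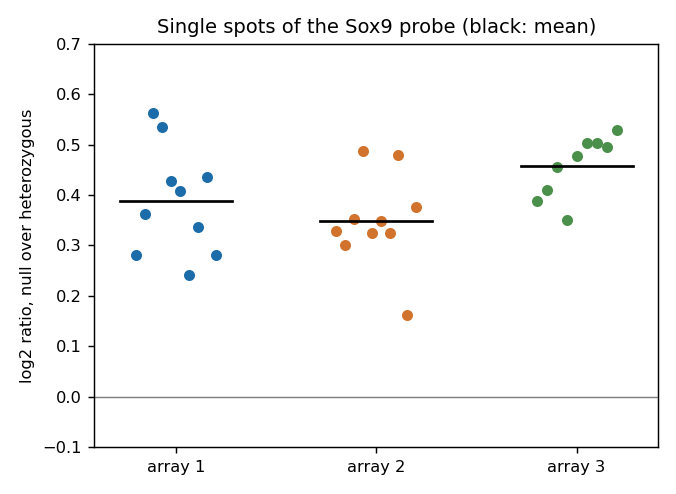
Log2 ratio of null over heterozygous (vertical axis) of each single spot of the Sox9 probe on arrays 1 to 3 (horizontal axis), with the array mean as a black line. All usable spots lie between 0.16 and 0.56.

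Sox10, a factor of neural crest cells and later of glia and melanocytes, was dim in both genotypes. Its log2 signal was 6.82, 6.75 and 6.55 in null cultures, against 6.62, 6.57 and 6.37 in heterozygous cultures. The lowest signal that counted as well above background was 5.86 to 5.89 in null and 5.83 to 6.02 in heterozygous channels, and the median kept probe stood at 8.76 to 8.79. The groups overlapped, yet the log2 ratio was 0.20, 0.18 and 0.18, an SD of 0.02. The fitted value of 0.19 (SE 0.08, 95% interval 0.0024 to 0.37) had an unadjusted p of 0.0477 and missed the threshold after adjustment (limma adjusted p = 0.0748).

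Tfap2a, an AP-2 factor of the neural plate border and surface ectoderm, had log2 signals of 7.84, 7.54 and 7.39 in null cultures, against 7.55, 7.12 and 7.30 in heterozygous cultures. The groups overlapped, and the gap was narrow on array 3. The log2 ratios were 0.29, 0.41 and 0.08, with a fitted value of 0.26 (SE 0.09, 95% interval 0.05 to 0.47, limma adjusted p = 0.0379), a 1.20-fold higher signal. This call was lost without replicate 1 (adjusted p = 0.133) and without replicate 2 (adjusted p = 0.242). Another Tfap2a probe was not above background in either genotype on any array. Tfap2b, its paralog in the neural crest and kidney, was above background in null RNA on 1 array and in heterozygous RNA on none, with log2 signals of 6.09, 6.11 and 6.19 in null cultures, against 6.02, 5.94 and 5.96 in heterozygous cultures. It was not tested, and with so few channels above background no fold or direction is drawn from these signals.

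Signals overlapped between genotypes for 6 of the 9 factors tested. Twist2 and Sox9 were above the heterozygous range on all arrays and Snai2 below it, 3 of 9, while 52.1% of all genes showed such a gap, 26.1% in each direction. Among all tested genes with a symbol, those nearest to Snai2 in Euclidean distance over the 3 log2 ratios were Phactr2 at 0.11, Lpp at 0.18 and Vps33b at 0.19. With only 3 arrays many genes share such a pattern.

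Cell type markers moved beside the factors. For comparison with these counts and those of the lists below, 30.2% of all genes tested were called higher and 30.1% lower. Of the markers tested, 7 of 7 for early mesoderm rose, as did 7 of 7 for neural progenitors, 6 of 6 for endothelium, 4 of 4 for epicardium, 6 of 6 for red cells and 6 of 8 for fibroblasts and feeders, while 2 of 5 Schwann cell and melanocyte markers fell. The mean log2 signal of the early mesoderm markers was 8.83 to 9.04 in null cultures, against 7.12 to 7.37 in heterozygous cultures, and that of the epicardium markers was 8.79 to 9.23 in null cultures, against 7.61 to 7.78 in heterozygous cultures. For fibroblasts and feeders it was 11.29 to 11.68 in null cultures, against 10.23 to 11.17 in heterozygous cultures. Col1a1 was not usable on array 1 and is missing from the mean of that array. All 8 cardiomyocyte markers and all 8 endoderm markers fell, with mean log2 signals of 8.57 to 9.17 and 10.07 to 10.30 in null cultures, against 12.27 to 12.58 and 12.56 to 12.84 in heterozygous cultures. The part of these cell types in the changes of the factors was not tested.

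Epithelial genes, only some of which are classical repression targets of Snai, Zeb and Twist, fell for the most part. Of 24 tested, 18 fell, 9 of them by at least 2-fold, 3 rose and 3 did not pass, with a median log2 ratio of -0.86 (-0.43 with median centring without loess). The ordinary t statistic gave 9 lower and 0 higher. Esrp2, an epithelial splicing regulator, fell by 1.72 on the log2 scale (SE 0.10), with array values of -1.91, -1.46 and -1.81. Spint1, an inhibitor of surface serine proteases, fell by 1.64 (SE 0.09). Crb3, a polarity protein, fell on both of its probes, at -1.34 (SE 0.10) and -0.85 (SE 0.09).

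Cdh1, which encodes E-cadherin and is the best known target of these repressors, went the other way. Its log2 ratios were 0.19, 0.39 and 0.69, with a fitted rise of 0.42 (SE 0.11, limma adjusted p = 0.0083). The call was lost with the scanner software's processed signals (adjusted p = 0.0614 by limma), with the 6 channels as unpaired samples (adjusted p = 0.566) and with the ordinary t statistic (adjusted p = 0.163). Grhl3, a factor of surface ectoderm, rose by 0.52 (SE 0.10). Epcam, an epithelial adhesion molecule, had log2 ratios of -0.23, -0.06 and 0.15 and did not pass (limma adjusted p = 0.708). The endoderm markers, which come from an epithelium, fell beside this list with a median of -2.45, and their part in it was not tested.

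The E-box that Snai and Zeb proteins bind best reads CAGGTG on 1 strand and CACCTG on the other. It was searched on both strands in the 250 bases before each gene's RefSeq start (build GRCm38.p6). Of 32841 such windows 17.2% held it, and of 27018 genes 19.4% did. Among the epithelial genes, 17 of 25 were in the table and 12 of the 17 held it (70.6%). Of the 12 with the letters, 8 fell, 2 rose and 2 did not pass, and of the 5 without them 4 fell and 1 did not pass. Among the 12 mesenchymal genes with a promoter listed, 0 held it. Among marker lists, 4 of 8 cardiomyocyte genes (50%), 2 of 6 endoderm genes (33.3%) and 0 of 6 neural progenitor genes held it. Cdh1 was not among the 17. As the epithelial list holds classical repression targets, its share is no test of these factors. A match is a run of letters and says nothing of binding in these cells. The epithelial windows with at least 2 copies that lie before every listed start of their gene are printed here to show how the letters are spaced, 5′ to 3′ on the strand of the gene, with the E-box in capitals.
Crb3, chr17:57061951-57062200, plus strand: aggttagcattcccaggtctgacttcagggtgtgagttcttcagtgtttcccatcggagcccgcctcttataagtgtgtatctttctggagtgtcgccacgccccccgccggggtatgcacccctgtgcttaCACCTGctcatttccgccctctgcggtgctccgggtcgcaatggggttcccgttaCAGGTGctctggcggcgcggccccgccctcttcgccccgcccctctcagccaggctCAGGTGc
Ap1m2, chr9:21312334-21312583, minus strand: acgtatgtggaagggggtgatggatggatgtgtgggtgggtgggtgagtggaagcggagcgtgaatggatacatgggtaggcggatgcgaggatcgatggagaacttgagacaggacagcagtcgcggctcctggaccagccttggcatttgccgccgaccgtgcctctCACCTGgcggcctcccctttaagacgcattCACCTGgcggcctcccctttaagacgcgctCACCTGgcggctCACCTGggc
Rab25, chr3:88548280-88548529, minus strand: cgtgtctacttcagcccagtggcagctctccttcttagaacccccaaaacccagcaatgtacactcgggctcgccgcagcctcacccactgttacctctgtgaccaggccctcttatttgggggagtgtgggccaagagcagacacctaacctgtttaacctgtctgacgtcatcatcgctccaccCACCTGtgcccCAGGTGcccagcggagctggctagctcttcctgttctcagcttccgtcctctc
Epcam, chr17:87635729-87635978, plus strand: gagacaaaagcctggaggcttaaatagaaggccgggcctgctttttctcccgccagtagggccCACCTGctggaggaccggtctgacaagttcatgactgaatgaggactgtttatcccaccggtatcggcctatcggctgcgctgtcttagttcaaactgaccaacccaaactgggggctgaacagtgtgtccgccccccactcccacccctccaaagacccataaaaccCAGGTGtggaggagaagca
The 4 genes printed did not share a direction. Crb3 fell as given above, and Ap1m2, a subunit of the epithelial sorting adaptor AP-1B, fell by 0.49 (SE 0.10). Rab25, an epithelial recycling GTPase, rose by 0.46 (SE 0.10), and Epcam did not pass. Ocln and Cldn7 held 2 copies before some but not all of their listed starts and are not printed. Both were called lower, with log2 ratios of -1.49 (SE 0.09) and -1.28 (SE 0.13).

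Promoters of 6 of the 10 factors were in the same table, in 10 windows. Only Snai1 held the letters, in 1 copy whose first base lies 126 bases before the start, and its window is printed because Snai1 is itself an E-box binding repressor.
Snai1, chr2:167537945-167538194, plus strand: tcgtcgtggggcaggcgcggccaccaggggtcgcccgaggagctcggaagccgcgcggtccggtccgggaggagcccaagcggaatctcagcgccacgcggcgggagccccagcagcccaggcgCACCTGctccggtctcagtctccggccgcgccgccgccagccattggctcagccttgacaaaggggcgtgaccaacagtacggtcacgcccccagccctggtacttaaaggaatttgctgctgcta
No match was found in the windows of Twist1, Twist2, Zeb2, Tfap2a and Tfap2b.

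Mesenchymal genes moved both ways. Of 24 tested, 13 rose, 5 fell and 6 did not pass (8 rose and 2 fell with unpaired channels), with a median log2 ratio of 0.32 (0.60 with median centring without loess). The list holds all 8 fibroblast and feeder markers, so 6 of the 13 rises are the same genes counted there. The ordinary t statistic gave 4 higher and 1 lower. Cdh11, counted as risen, was called lower on its other probe (-0.48). Col1a2, a chain of type I collagen and also on the fibroblast and feeder list, rose by 1.59 (SE 0.16), and Foxc2, a forkhead factor of mesenchyme, by 1.30 (SE 0.09). The textbook markers of the transition did not rise. Fn1, which encodes fibronectin, had log2 ratios of -0.49, -0.62 and -0.43 and fell by 0.51 (SE 0.09), a call lost with median centring (-0.09) and with unpaired channels (adjusted p = 0.0725 by limma). Cdh2, which encodes N-cadherin, fell by 0.33 (SE 0.09) and stood at 0.10 with median centring. Its call was also lost without replicate 2 (-0.26, adjusted p = 0.0965 by limma) and with unpaired channels (adjusted p = 0.0538). Vim, which encodes vimentin, was usable on 2 arrays, with log2 ratios of -0.35 and 0.17, and did not pass. Sparc, a matrix protein that parietal endoderm also makes, fell by 1.70 (SE 0.10) on its brightest probe, while its 2 other probes, 1 of them usable on 1 array only, did not pass.

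**Figure D4:**
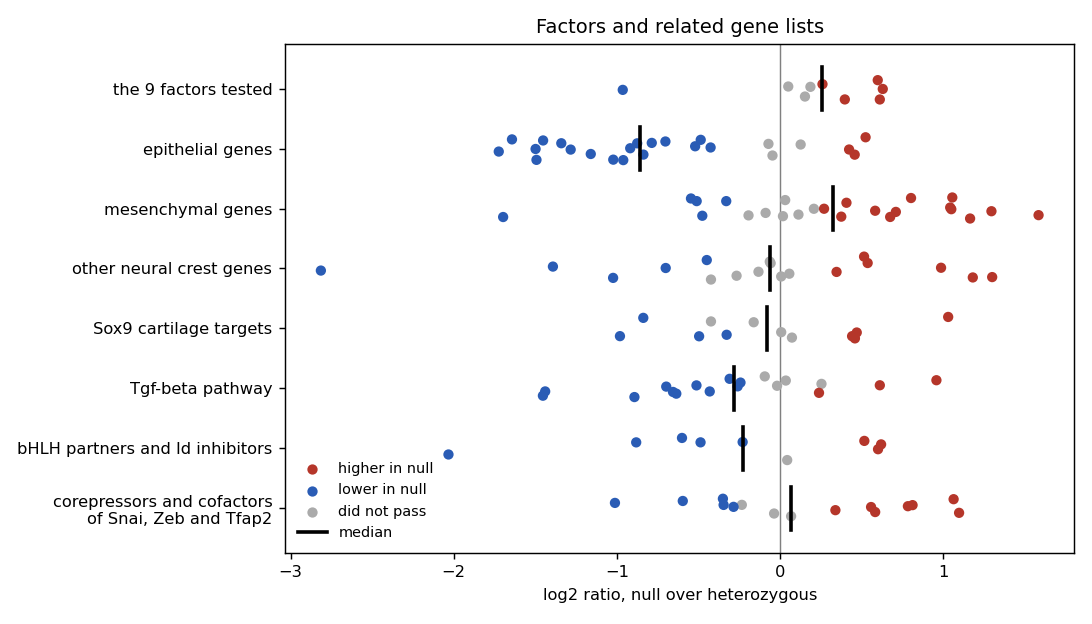
Log2 ratio of null over heterozygous (horizontal axis) of each tested gene in the 9 factors and in 7 related lists (rows), coloured by its call, with the median of the list as a black bar. The epithelial median lies at -0.86 and the mesenchymal median at 0.32.

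Other neural crest genes also split, in shares near those of all genes tested (30.2% higher and 30.1% lower). Of 27 listed, 18 were bright enough to test, of which 6 rose, 5 fell and 7 did not pass, with a median of -0.06. The median was 0.06 with median centring and -0.24 with processed signals, and 3 fell in the authors' deposited table. Ets1, counted as risen, was called lower on its other probe (-0.61). Foxd3, which marks premigratory crest and also pluripotent epiblast, was not above background in heterozygous RNA on any array. Averaged over the arrays, its signal in null cultures was at least 2.41-fold higher (adjusted p = 0.00024 by limma). The null log2 signal was 6.61, 7.65 and 7.74, so array 1 showed the smallest gap. The 2.41-fold bound takes, for the heterozygous signal of an array, its measured value or that of the dimmest probe still well above background, whichever is greater. The Foxd3 call was lost with the ordinary t statistic (adjusted p = 0.107). Pax3, a factor of the neural plate border and of somites, rose by 0.35 (SE 0.11), a call lost without replicate 3 (0.21, adjusted p = 0.0787 by limma), in the authors' deposited table (0.050) and with unpaired channels (adjusted p = 0.0887). Cdh6, a cadherin of crest, kidney and other epithelia, fell by 2.81 (SE 0.08), and Mitf, the melanocyte factor and a target of Sox10, fell by 1.39 (SE 0.13). The pluripotent cell markers, of which 5 of 6 rose, moved with Foxd3, and their part was not tested. Nanog, counted as risen, was called lower on 1 of its 3 probes (-0.34).

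The cartilage genes that Sox9 switches on moved both ways. Of 12 tested, 4 rose, 4 fell and 4 did not pass (median -0.08). These shares are near those of all genes tested (30.2% higher and 30.1% lower). The authors' deposited table gave 1 higher and 2 lower. Col2a1, encoding type II collagen and the best known of these targets, had log2 ratios of -0.90, -0.78 and -0.83 and fell by 0.84 (SE 0.08). Comp, a cartilage matrix protein, fell by 0.98 (SE 0.10), and Hapln1, which links hyaluronan to proteoglycans, rose by 1.03 (SE 0.12).

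Tgf-beta is a main inducer of Snai and Zeb genes. Of 18 genes of its pathway, 11 fell, 3 rose and 4 did not pass, with a median of -0.28. With median centring 5 rose and 4 fell, with a median of 0.11, and the authors' deposited table gave 7 lower. The ordinary t statistic gave 4 lower. The ligand Tgfb2, which drives cushion formation in the heart, fell by 1.45 (SE 0.08), and its coreceptor Tgfbr3 fell by 1.44 (SE 0.13). The ligand Tgfb3 rose by 0.96 (SE 0.08).

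Twist proteins pair with E-proteins, and Id proteins take E-proteins away from them. Of 9 genes, the E-protein and Id genes together with the bHLH genes Hand1 and Hand2, 5 fell, 3 rose and 1 did not pass. The median was -0.23 (0.21 with median centring, where 2 fell). Hand1 (-0.23) was counted among those that fell and Hand2 (0.60) among those that rose. Id2 fell by 2.03 (SE 0.10) and Id4 by 0.88 (SE 0.09), while the E-protein gene Tcf3 rose by 0.62 (SE 0.09). Tcf4, another E-protein gene, did not pass on its brightest probe (0.04), and its other probe was called lower at -0.58. Tcf12, counted among the 3 that rose, was called lower on its other probe at -0.28.

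Among 15 genes for corepressors and cofactors of Snai, Zeb and Tfap2 proteins, 7 rose, 5 fell and 3 did not pass, with a median of 0.07 (0.44 with median centring). The number that fell was 3 without replicate 1 or without replicate 2, and 2 with median centring or in the authors' deposited table. The histone deacetylase gene Hdac1 rose by 1.1 (SE 0.10) and Ctbp2, encoding a corepressor that Zeb proteins recruit, by 1.06 (SE 0.14), while Rcor1, encoding the CoREST corepressor, fell by 1.01 (SE 0.08). Of the nearest relatives of the factors, 5 of 7 were tested. Scrt2, a Snai-related neuronal repressor, rose by 0.47 (SE 0.08), a call lost in the authors' deposited table (0.24, adjusted p = 0.104 by limma), and Snai3, Scrt1, Tfap2c and Tfap2e did not pass.

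The size of the factors' ratios depended on how the arrays were scaled, as the plot of all settings shows. Without replicate 3, whose direction is in doubt, 5 factors were called higher and 1 lower.

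**Figure D5:**
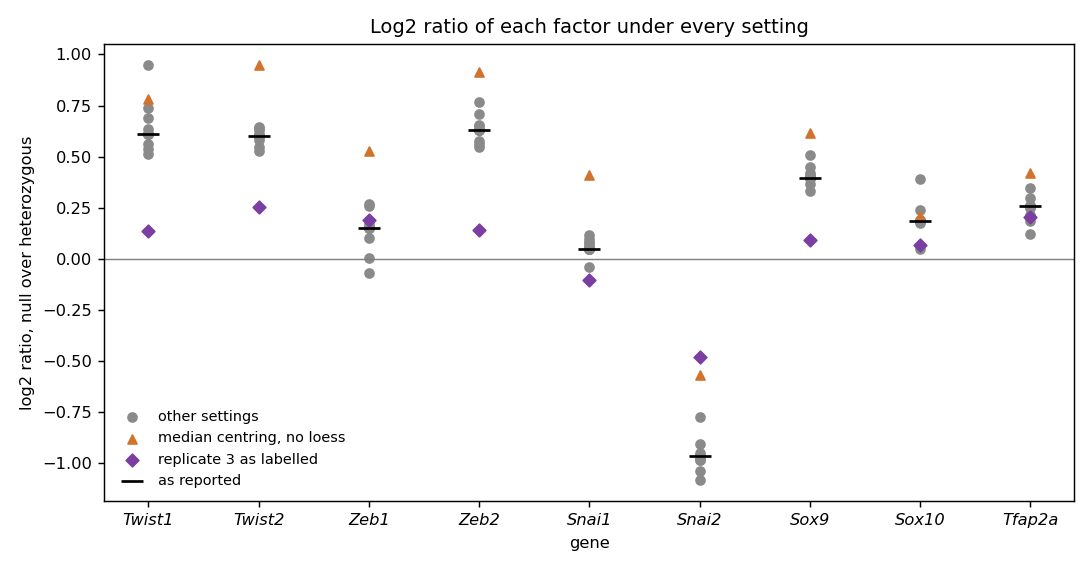
Log2 ratio of null over heterozygous (vertical axis) of the 9 tested factors (horizontal axis) as reported and under each other setting. Median centring moves all 9 upward, with Snai2 at -0.57, and leaving replicate 3 as labelled brings Twist1 to 0.14 and Zeb2 to 0.14.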

How the data were processed

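Agilent Feature Extraction wrote the deposited spot intensity values of both channels, with local backgrounds, flags and processed signals. Its version is 11.5.1.1 in the file headers and 8.5.1.1 in the submitters' processing notes. The log10 ratio column, red over green per the file headers, was used only to check directions. The authors' deposited value table was read as log2 ratios with replicate 3 turned, normalized by steps not given in the sources used here. Its slopes against the scanner ratios were 0.943, 0.944 and -0.946 on bright spots (mean log2 intensity above 11), its column medians were -0.10, -0.11 and 0.07, and its centring is unknown. With 1 slide and 1 scan for all arrays, neither could serve as a block.

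Foreground medians were corrected by normexp (offset 50) and normalized by loess within arrays in limma 3.58.1 (R 4.3.3). Control spots and outliers had no weight in loess, outliers were dropped, and spots of a probe were averaged. With replicate 3 turned, null RNA is taken as red on replicates 1 and 2 and green on replicate 3, so dye effects would cancel only in part, and not at all if the labels hold. A probe was kept (24575 of 39429) if well above background on all 3 arrays in either genotype. Ratios were fitted with lmFit and eBayes, which gives a moderated SE, and a gene's brightest probe stands for it. Of 48 listed genes with several probes kept, 4 were called higher on 1 probe and lower on another. Channel signals follow loess and Aquantile, and signals of different probes are not comparable. The procedure was tested on simulated data. Precision is limited by the number of arrays.

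Accessions without their versions named 28025 probes in RefSeq's gene list for GRCm38.p6, the build of the promoter sequences. The array design uses mm9 per the file headers.

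Members and lists were chosen with earlier results of these data known. Named are all members, Hopx, 9 fixed genes, from each list the 2 called genes that moved most and the 1 that moved most the other way, and the 3 genes nearest to the member that moved most. Outside that rule, Crb3, Ap1m2, Rab25, Ocln and Cldn7 are named for their promoters. Hand1 and Hand2 are named to describe their list, and a few genes because they were too dim or did not pass. Alternatives covered background, scaling, filters, probe rules, variance, a dye term, unpaired channels, the authors' table and leaving out each replicate.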

Additional observations from a re-analysis of the deposited data

Results flagged for a closer look

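Probes of 2 factors lay outside the test because they were too dim, yet had signal above background in part of the data. The Tfap2b probe was above background in null RNA on 1 array and in heterozygous RNA on none, with a mean log2 ratio of 0.16 (SD 0.08, n = 3). These Tfap2b signals lay near background, so neither the mean nor its SD gives a fold or a direction. The dimmer Zeb2 probe was above background in null RNA on 2 arrays and in heterozygous RNA on 1, with a mean log2 ratio of 0.090 (SD 0.14, n = 3).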

How the results depend on the processing

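Snai2, Twist2 and Hopx kept their call and direction in all 12 settings other than the ordinary t statistic and replicate 3 as labelled, and Twist1, Zeb2 and Sox9 did so in 11 of the 12. Treating the 6 channels as unpaired samples (no replicate block, so the pairing within an array is dropped) left 1 factor called higher, and Twist1 (0.61, adjusted p = 0.0762), Zeb2 (0.63, adjusted p = 0.107), Sox9 (0.40, adjusted p = 0.0814) and Tfap2a (0.26, adjusted p = 0.237) lost their call. Tfap2a also lost it in the authors' deposited table (0.12), with processed signals (0.30) and without replicate 1 or replicate 2 (0.19 to 0.35 over the replicates left out in turn). The ordinary t statistic, which shares no spread between probes, called 2 factors higher and 0 lower, and 1964 genes higher and 2032 lower. It lost 18 calls among the 39 single genes recomputed. Outside the factors these were Cdh1, Cdh2, Fn1, Pax3, Foxd3, Col1a2, Grhl3, Mitf, Hapln1, Comp, Tgfbr3, Hdac1 and Ctbp2. Of the factors, the ordinary t statistic lost Snai2 (-0.96, adjusted p = 0.0888), Twist1 (0.61), Twist2 (0.60, adjusted p = 0.0563), Zeb2 (0.63) and Tfap2a (0.26), and called Sox10 (0.19, adjusted p = 0.0361). Processed signals also called Sox10 (0.39, adjusted p = 0.0322). Median centring without loess called Snai1 (0.41, adjusted p = 0.0246) and Zeb1 (0.53, adjusted p = 0.0203), put Cdh2 at 0.10, and called 3008 genes lower, against 5967 as reported. The authors' deposited table gave 3911 genes higher, against 5980 as reported. Asking for at least 2-fold left 0 factors higher and 0 lower, with 965 genes higher and 1195 lower, by construction. The mean over a gene's probes put Tcf4 at -0.27. Leaving replicate 3 as labelled, which sets 1 array against 2, gave 0 factors higher and 0 lower, and 0 genes higher and 0 lower by limma (62 of either direction at an unadjusted p under 0.05), with Hopx at -0.83, Snai2 at -0.48, Twist1 at 0.14, Twist2 at 0.25, Zeb2 at 0.14, Sox9 at 0.093, Tfap2a at 0.20, Cdh1 at -0.035 and Pax3 at -0.064. The cause was not tested where no construction is named. No filter on dim probes, no background subtraction and a dye term changed no call among the 39 single genes recomputed, although among the nearest relatives of the factors 2 genes were called higher, against 1 as reported, without the filter or without background subtraction. Signal over background limits what Sox10, Tfap2a and Tfap2b can show.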
